A study of Homo sapiens with 6 samples.

Results

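The C/EBP transcription factors described here are CEBPA, CEBPB, CEBPD and CEBPG, 4 genes taken by their symbols from a count table of 23368 gene symbols. They were selected on the differences between siADNP and siControl read counts seen earlier in this same table, so those differences are given as a description, with no p-value, and nothing is supported with them. The table holds RNA-seq of HCT116, an established human line from a colon cancer, in 3 libraries of cells given siRNA to knock down ADNP (siADNP) and 3 of cells given a control siRNA (siControl). ADNP is a zinc finger and homeodomain protein of chromatin. The submitters describe the replicates as biological but do not mention separate cultures, and p-values therefore reflect only how far these 6 libraries scatter, which may be technical scatter. The sources used here do not give the siRNA sequences or the time after transfection, and the cells are of 1 line.

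C/EBP proteins are basic leucine zipper factors that bind DNA as dimers, with one another or with other zipper proteins. C/EBP-alpha restrains proliferation and drives differentiation of myeloid cells, hepatocytes and adipocytes. C/EBP-beta and C/EBP-delta are raised by inflammatory cytokines and act in the acute phase response, while C/EBP-gamma lacks an activation domain and works largely through its partners, ATF4 among them. The mRNAs of CEBPA and CEBPB each give longer and shorter proteins from different start codons, which counts of reads per gene do not separate.

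The 250 bases before the annotated start of transcription are printed below to show the starts of these genes, which are among the most GC-rich. How promoter composition relates to the direction of change was not tested. RefSeq's promoter table (GRCh38.p14) held 3 of the 4 genes. Letters in capitals match, on either strand, one of 6 motifs: CCAAT (the CCAAT box), TGACGTCA (the cyclic AMP response element), TTCNNNGAA (a STAT site), TTGCNNAA (a C/EBP site), GGGCGG (the GC box) and TATAAA (the TATA box). The windows lie at chr19:33302535-33302784 on the minus strand for CEBPA, at chr20:50190333-50190582 on the plus strand for CEBPB and at chr19:33373459-33373708 on the plus strand for CEBPG.
CEBPA: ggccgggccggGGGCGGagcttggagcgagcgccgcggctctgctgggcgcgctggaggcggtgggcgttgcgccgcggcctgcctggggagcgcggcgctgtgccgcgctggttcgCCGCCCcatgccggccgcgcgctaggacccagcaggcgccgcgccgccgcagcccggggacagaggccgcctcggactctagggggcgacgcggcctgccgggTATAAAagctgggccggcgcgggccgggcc
CEBPB: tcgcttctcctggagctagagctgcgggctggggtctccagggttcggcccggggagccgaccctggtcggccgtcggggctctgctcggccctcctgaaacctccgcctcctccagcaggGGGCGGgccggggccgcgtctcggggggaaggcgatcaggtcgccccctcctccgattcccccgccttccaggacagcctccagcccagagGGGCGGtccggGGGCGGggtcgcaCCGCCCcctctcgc
CEBPG: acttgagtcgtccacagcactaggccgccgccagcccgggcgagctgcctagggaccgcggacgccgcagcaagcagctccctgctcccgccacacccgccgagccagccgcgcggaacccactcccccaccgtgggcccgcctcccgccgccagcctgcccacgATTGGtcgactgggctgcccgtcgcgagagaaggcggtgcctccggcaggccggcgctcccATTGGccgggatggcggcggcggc

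GC content was 81.2% in the CEBPA window, 75.6% in the CEBPB window and 76.0% in the CEBPG window, against a median of 58.0% over 35116 RefSeq windows of the same length. The CEBPA window held a TATA box that began 30 bases before the start and 2 GC boxes. The CEBPB window held 4 GC boxes, and the window of a second annotated CEBPB start held a TATA box that began 29 bases before that start. CEBPG instead had 2 CCAAT boxes, which began 85 and 24 bases before its start, and no GC box or TATA box. The window of a second annotated CEBPG start held 1 GC box and no CCAAT box, and that of the second CEBPB start held 1 CCAAT box and 5 GC boxes, so the motifs differ between the starts of a gene. Of all windows, 42.6% held a GC box, 32.0% a CCAAT box and 10.7% a TATA box. The C/EBP, STAT and cyclic AMP letters were found in none of these 3 windows and in 9.05%, 6.57% and 1.65% of all windows, and nothing follows from that about binding.

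Reads assigned to genes numbered 7396771 to 8726017 in the siADNP libraries and 8282290 to 10265175 in the siControl libraries. ADNP itself stood at 46.7, 55.3 and 59.8 CPM (reads scaled to library size) in the siADNP libraries, against 171, 155 and 167 CPM in the siControl libraries, so every library matched its label. Epithelial markers were present at a summed 3075 to 3296 CPM with siADNP and 3185 to 3248 CPM with siControl. The structural keratins KRT8 and KRT18 did not pass the test and VIL1, a marker of differentiated enterocytes, had 0 reads, while KRT19 fell with a log2 fold change of -0.15, a call that ended in 5 alternatives. The summed level of 10 markers of fibroblasts, blood cells and endothelium was 17.7 to 20.2 CPM with siADNP and 15.1 to 16.3 CPM with siControl. Of these, the macrophage marker CD68 rose with a log2 fold change of 0.42, a call that ended in 8 alternatives, the collagen COL1A1 did not pass and DCN and LUM were at 0 reads, and the part of these markers in the results was not tested.

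CEBPD, the delta factor of the acute phase, was the member with the large difference. It had 16, 33 and 35 reads in the siADNP libraries, which is 2.05, 3.74 and 4.74 CPM, against 50, 92 and 60 reads or 5.61, 9.05 and 7.23 CPM in the siControl libraries. All 3 siADNP libraries lay below all 3 siControl libraries, with siADNP replicate 1 the lowest of the 6 and siControl replicate 2 the highest. The means were 3.51 ± 1.36 CPM with siADNP and 7.30 ± 1.72 CPM with siControl (SD, n = 3 each). The log2 fold change, siADNP minus siControl, was -1.07 ± 0.23 (SE), or 47.7% of control, the 21st lowest of 12489 genes tested. In these bulk samples, fewer cells making a transcript and less of it in each cell cannot be told apart.

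The spread of CEBPD within a group was wider than counting alone gives. Its coefficient of variation was 38.7% with siADNP and 23.6% with siControl, while counting error at these read numbers gives 18.9% with siADNP and 12.2% with siControl. The 95% exact Poisson interval of its lowest library, siADNP replicate 1, ran from 1.17 to 3.34 CPM, and that of siADNP replicate 3 from 3.31 to 6.60 CPM. The interval of siControl replicate 1, the lowest siControl library, ran from 4.16 to 7.39 CPM and so overlapped that of siADNP replicate 3. These intervals cover counting error only, and no molecular identifiers are described for the reads. The log2 fold change of CEBPD was -0.81 without siADNP replicate 1 and at -0.87 without siControl replicate 2, and at -1.31 without siADNP replicate 3.

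CEBPB, the beta factor, lay the other way. It had 12.3, 11.7 and 11.5 CPM in the siADNP libraries, against 10.4, 10.3 and 8.68 CPM in the siControl libraries. The groups did not overlap, but siControl replicate 3 stood below the other 2 siControl libraries. The means were 11.8 ± 0.430 CPM with siADNP and 9.81 ± 0.981 CPM with siControl (SD, n = 3 each), with a log2 fold change of 0.26 ± 0.14 (SE). It was 0.19 without siControl replicate 3, and 0.10 ± 0.14 with an offset for GC content. CEBPB-AS1, an antisense gene that overlaps CEBPB in RefSeq, has no line of its own in the count table, and whether counting used strand is not given in the sources used here. Antisense reads may therefore be among those of CEBPB.

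CEBPG, the partner of ATF4, had the most reads of the members and overlapping groups. It had 64.9, 74.4 and 71.6 CPM in the siADNP libraries, against 71.8, 75.8 and 71.4 CPM in the siControl libraries. Only siADNP replicate 1 lay apart, below the other 5 libraries, which ran from 71.4 to 75.8 CPM. The log2 fold change was -0.05 ± 0.06 (SE), the smallest error of the 4 genes at 505 to 771 reads per library. CEBPA, the alpha factor, had few reads. Its levels were 2.44, 3.06 and 2.98 CPM in the siADNP libraries, against 3.25, 2.66 and 3.38 CPM in the siControl libraries, from 19 to 29 reads each. The groups overlapped, and the log2 fold change of -0.12 ± 0.25 (SE) leaves room for a difference in either direction. The CEBPA change was -0.28 ± 0.25 with the GC offset and ran from -0.22 to -0.02 when 1 library was left out.

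**Figure D1:**
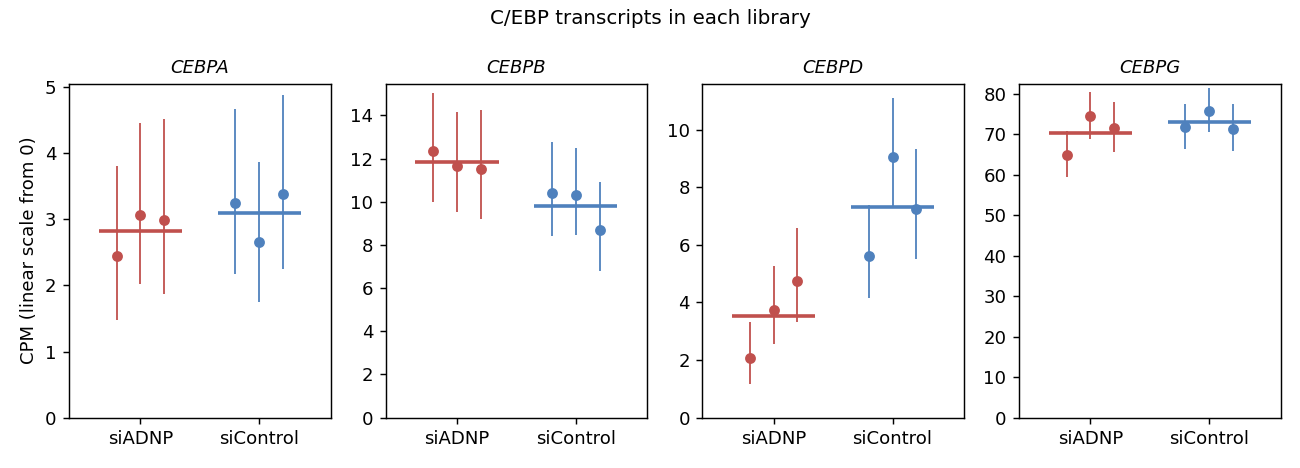
CPM of CEBPA, CEBPB, CEBPD and CEBPG (a panel each, linear axes from 0) in the 3 siADNP libraries on the left and the 3 siControl libraries on the right, with points for libraries, bars for 95% exact Poisson intervals and lines for group means. CEBPD sits at 2.05 to 4.74 CPM with siADNP and 5.61 to 9.05 CPM with siControl, while the groups of CEBPA and CEBPG overlap.

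All 4 members passed the filter on low counts, and their lowest value in any library, 2.05 CPM, was above the 1.18 CPM that the minimum count of 10 equals at the median library, so none entered the tests through 1 group alone. As a count only, 1 of the 4, CEBPD, was among the genes called by edgeR's quasi-likelihood test at a Benjamini-Hochberg threshold of 0.05, beside 13.7% of all tested genes called lower, 14.6% called higher and 28.3% called in either direction. The siADNP libraries all lay below the siControl libraries for CEBPD, as for 20.7% of tested genes, and all above them for CEBPB, as for 20.1%, which makes 40.8% without overlap. Since the members were chosen with this comparison known, nothing is read from these counts.

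Base composition differed between genes that rose and fell. The median GC content of the longest GENCODE transcript was 54.0% among the 1824 genes called higher and 43.0% among the 1714 called lower, against 48.6% among genes not called. CEBPD, at 70.0%, was more GC-rich than either median, and so were CEBPB at 66.2% and CEBPA at 65.9%, while CEBPG was at 43.9%. Of 422 tested genes with a GC content of at least 65%, 26.1% were called higher and 3.79%, or 16 genes, were called lower. That limit was set after the members' values were seen. CEBPD was -1.24 ± 0.22 with the GC offset.

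Per kilobase of transcript, with GENCODE lengths, the order of mean levels was CEBPG, CEBPB, CEBPD, CEBPA in both groups. CEBPG stood at 17.1 ± 1.19 CPM per kilobase with siADNP and 17.8 ± 0.602 with siControl, and CEBPB at 6.05 ± 0.220 with siADNP and 5.02 ± 0.501 with siControl (SD, n = 3 each). CEBPD stood at 1.61 ± 0.624 CPM per kilobase with siADNP and 3.35 ± 0.791 with siControl, and CEBPA at 1.07 ± 0.128 with siADNP and 1.18 ± 0.146 with siControl (SD, n = 3 each). In the siADNP libraries CEBPD and CEBPA overlapped, at 0.943 to 2.18 and 0.927 to 1.16 CPM per kilobase, whereas in the siControl libraries no neighbours in the order overlapped. The length of CEBPD bears on this, since GENCODE's transcript has 2178 bases and the RefSeq gene 1252. With the RefSeq length, chosen as an alternative after the data were seen, CEBPD was at 2.81 ± 1.09 CPM per kilobase with siADNP, clear of CEBPA, and at 5.83 ± 1.38 with siControl, where it overlapped CEBPB and its mean was the higher. By mean level per kilobase, CEBPG was above 69.8% of tested genes, CEBPB above 37.6%, CEBPD above 20.5% and CEBPA above 9.59% with GENCODE lengths, and CEBPD above 31.6% with the RefSeq length. Only the length of CEBPD was changed in that alternative, and all other genes kept their GENCODE lengths.

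**Figure D2:**
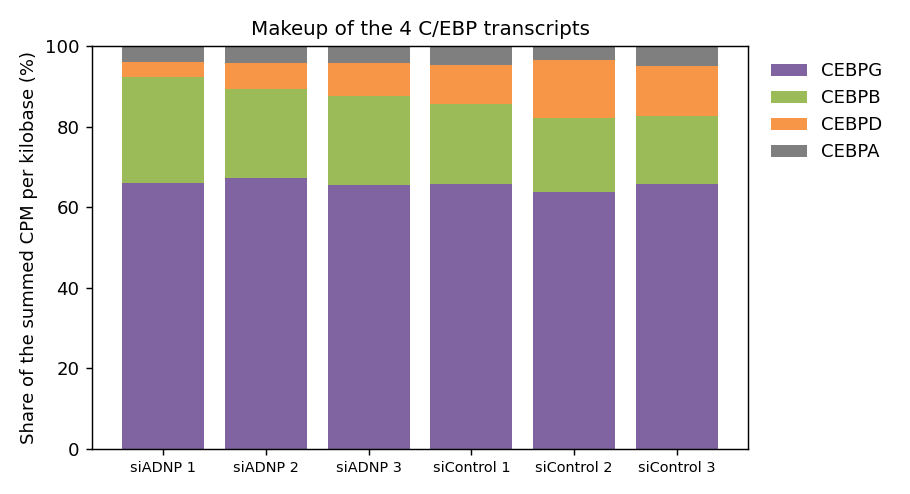
Share of each gene (percent) in the summed CPM per kilobase of the 4 C/EBP transcripts, in 3 siADNP libraries on the left and 3 siControl libraries on the right, with GENCODE lengths. CEBPG takes 63.9% to 67.2% in every library, while CEBPD takes 3.94% to 8.18% with siADNP and 9.67% to 14.4% with siControl.

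As a share of the summed level per kilobase of the 4 transcripts, with GENCODE lengths, CEBPG was at 66.2 ± 0.914% with siADNP and 65.1 ± 1.07% with siControl (SD, n = 3 each). CEBPB made up 26.3%, 22.1% and 22.1% in the siADNP libraries, against 20.0%, 18.3% and 16.8% in the siControl libraries. CEBPD made up 3.94%, 6.37% and 8.18% in the siADNP libraries, against 9.67%, 14.4% and 12.6% in the siControl libraries. CEBPB was thus the larger and CEBPD the smaller part of the set in every siADNP library, relative to every siControl library. With the RefSeq length for CEBPD, its share was 10.2 ± 3.40% with siADNP and 19.4 ± 3.48% with siControl, and that of CEBPG was 63.3 ± 1.39% with siADNP and 59.7 ± 1.81% with siControl, where the CEBPG groups no longer overlapped (SD, n = 3 each). Shares of a sum are not independent, so a lower share of one gene raises the others.

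**Figure D3:**
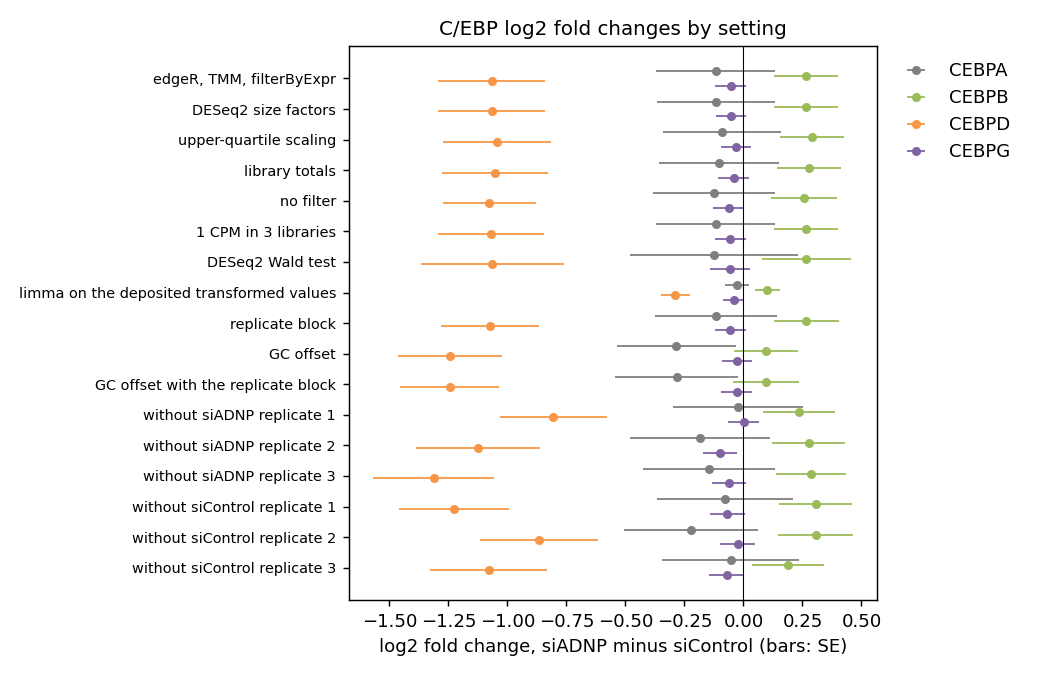
Log2 fold change, siADNP minus siControl, of the 4 C/EBP genes (points, with SE) under the edgeR fit and each alternative, listed down the page. CEBPD lies below 0 in all of them, between -1.31 and -0.29, where -0.29 is on the compressed scale of the deposited transformed values, and CEBPB lies between 0.10 and 0.31.

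CEBPZ, DDIT3 and LOC80054, 3 tested genes listed with the C/EBP family by symbol, relation or position, did not pass in edgeR or in DESeq2's Wald test. The unadjusted edgeR p was under 0.05 for 2 of them, DDIT3 and LOC80054. In edgeR, 28.3% of all tested genes were called. CEBPE, the epsilon factor of late granulocyte development, had 0 reads in all 6 libraries. DDIT3, the stress-induced C/EBP relative CHOP, had 17.9, 19.4 and 21.7 CPM with siADNP, against 15.6, 18.7 and 13.3 CPM with siControl, and did not pass (log2 fold change 0.29 ± 0.12, edgeR adjusted p = 0.0603). It passed without siControl replicate 2 (adjusted p = 0.0128), its highest siControl library, without siADNP replicate 1 (0.0468), with upper-quartile scaling (0.0446), with library totals (0.0494) and in limma on the deposited values (0.0475). CEBPZ, which in spite of its symbol is a CCAAT-binding protein without the C/EBP zipper, did not pass, with a log2 fold change of -0.10 ± 0.05. LOC80054, the divergent transcript beside CEBPA, averaged 2.99 ± 0.649 CPM with siADNP and 4.28 ± 0.744 CPM with siControl (SD, n = 3 each), and its groups overlapped (log2 fold change -0.51 ± 0.24, edgeR adjusted p = 0.107).

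Among zipper proteins described as dimer partners of C/EBP factors, 2 rose, 1 fell and 5 did not pass among the 8 tested, which again include DDIT3. Their median log2 fold change was 0.13, against -0.00128 over all tested genes, of which 14.6% were called higher and 13.7% lower. ATF4, the master factor of the integrated stress response and partner of C/EBP-gamma, had 638, 554 and 634 CPM with siADNP, against 480, 532 and 451 CPM with siControl (log2 fold change 0.32 ± 0.05, edgeR adjusted p = 2.81e-05). ATF2, a partner of JUN that is activated by stress kinases, rose with a log2 fold change of 0.40 ± 0.07, at 70.4 to 73.6 CPM with siADNP and 48.8 to 60.5 CPM with siControl. JUN fell, with 12.3 to 13.7 CPM with siADNP and 16.6 to 18.0 CPM with siControl. ATF3, named after its values were seen, had 22.2, 20.8 and 25.5 CPM with siADNP, against 18.6, 27.9 and 17.7 CPM with siControl. It did not pass, but did without siControl replicate 2 (edgeR adjusted p = 0.0450), its highest library. BATF was at 0 reads, and BATF2 had too few reads to test, 19 with siADNP and 4 with siControl.

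Receptors of the IL6 cytokine family, which raise CEBPB and CEBPD through STAT3, differed in both directions. Of 16 tested genes among the cytokines, receptors and factors upstream of C/EBP transcription, 3 rose, 3 fell and 10 did not pass. The median log2 fold change of the 16 was 0.07. Over all tested genes, 14.6% were called higher and 13.7% lower. IL6ST, the signalling subunit shared by the receptors of this family, had 100, 110 and 96.9 CPM with siADNP, against 57.2, 57.8 and 56.3 CPM with siControl (log2 fold change 0.84 ± 0.06, edgeR adjusted p = 4.23e-13). IL6R, which binds IL6 itself, averaged 9.64 ± 0.366 CPM with siADNP and 14.4 ± 0.537 CPM with siControl (log2 fold change -0.58 ± 0.13, edgeR adjusted p = 0.000728). The 2 receptors thus moved in opposite directions, and neither had overlapping groups.

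LIFR and OSMR, the chains for LIF and oncostatin M, were higher with siADNP by log2 fold changes of 0.26 and 0.23, though LIFR did not pass without siADNP replicate 2 (edgeR adjusted p = 0.0653) and OSMR without siADNP replicate 1 (0.0610). NFKB1, a subunit of NF-kB, fell with -0.31. NR3C1, the glucocorticoid receptor, fell with -0.33, at 17.6 to 19.4 CPM with siADNP and 21.0 to 26.9 CPM with siControl. That call ended in DESeq2's Wald test (adjusted p = 0.0950), under the GC offset (0.0705, or 0.0779 once blocked by replicate), and without siADNP replicate 1 (0.0675), siADNP replicate 3 (0.0685) or siControl replicate 3, where the change was -0.22 (0.189). STAT3 did not pass, with 72.7 to 75.6 CPM with siADNP and 72.4 to 78.7 CPM with siControl, nor did its target SOCS3, with 5.55 to 6.94 CPM with siADNP and 4.48 to 5.79 CPM with siControl. The ligands IL6, IL1A, IL1B, OSM and TNF were too low to test, with at most 9 reads over the 3 libraries of a group, while LIF was expressed at 17.9 to 18.5 CPM with siADNP and 17.4 to 18.7 CPM with siControl.

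Among 14 tested genes whose products modify, degrade or control the translation of C/EBP proteins, there were 3 rises, 1 fall and 10 that did not pass. The median log2 fold change was -0.00426. Over all tested genes 28.3% were called, 14.6% higher and 13.7% lower. MAPK3, the kinase ERK1, had 33.3, 32.6 and 31.2 CPM with siADNP, against 17.0, 20.0 and 22.1 CPM with siControl (log2 fold change 0.72 ± 0.10, edgeR adjusted p = 3.90e-07). TRIB2, a pseudokinase that brings a ubiquitin ligase to C/EBP-alpha, averaged 17.1 ± 1.59 CPM with siADNP and 11.6 ± 1.19 CPM with siControl (log2 fold change 0.55 ± 0.12, edgeR adjusted p = 0.000760). Its paralogue TRIB1 was at 441 to 459 CPM with siADNP and 442 to 455 CPM with siControl and did not pass. FBXW7, the substrate-binding part of a ubiquitin ligase, fell with -0.38 ± 0.07 (edgeR adjusted p = 6.20e-05), at 48.5 to 55.6 CPM with siADNP and 63.1 to 71.2 CPM with siControl. Calreticulin, CALR, rose with 0.18, a call that ended under the GC offset (adjusted p = 0.0717, or 0.127 once blocked by replicate).

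Most genes described as C/EBP targets in inflammation were too low to test in these cells. Of 26 in the table, 19 had reads and 3 could be tested, and none of these passed in edgeR, at an unadjusted p under 0.05 for 1 of them, PTGS2, or in DESeq2's Wald test. The share of all tested genes called in edgeR was 28.3%. PTGS2, the inducible cyclooxygenase, named after its values were seen, had 2.31, 2.49 and 2.98 CPM with siADNP, against 5.16, 3.34 and 3.50 CPM with siControl, with no overlap (log2 fold change -0.62 ± 0.25, edgeR adjusted p = 0.0603, and 0.0477 without siControl replicate 2). LCN2, a neutrophil siderophore binder, had 3 reads in all with siADNP and 6 with siControl, and CXCL1, a neutrophil chemokine, had 18 with siADNP and 31 with siControl. Myeloid targets gave 1 testable gene of 12, GFI1, which did not pass.

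Targets known from fat and liver gave 9 testable genes of 27, of which 3 rose, none fell and 6 did not pass (median log2 fold change 0.14). The shares over all tested genes were 14.6% called higher and 13.7% lower. SLC2A4, the insulin-regulated glucose transporter, had 2.95, 3.96 and 5.29 CPM with siADNP, against 1.57, 1.48 and 2.05 CPM with siControl (log2 fold change 1.26 ± 0.28, edgeR adjusted p = 0.000689). SCD, the stearoyl-CoA desaturase, rose with 0.20. PCK2, the mitochondrial phosphoenolpyruvate carboxykinase and a stress response gene, rose with 0.41, but did not pass in DESeq2's Wald test (adjusted p = 0.181), under the GC offset once blocked by replicate (0.0610) or without siADNP replicate 3, at 0.27 (0.0576). PPARG, the fat cell regulator downstream of C/EBP factors, did not pass, at 47.0 to 52.7 CPM with siADNP and 52.5 to 52.7 CPM with siControl. Of the genes that mark mature fat cells and hepatocytes, FABP4, LPL, TTR and PCK1 had 0 reads.

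Genes described as targets of C/EBP-gamma with ATF4 were called more often upward than downward. Among the 13 tested genes there were 7 rises, 1 fall and 5 that did not pass, with a median log2 fold change of 0.22. Beside these edgeR counts, edgeR called 14.6% of all tested genes higher and 13.7% lower. DESeq2's Wald test called 5 genes of the list. It called 1100 genes higher and 1071 lower in all, where edgeR called 1824 and 1714. PHGDH and MTHFD2, enzymes of serine synthesis and mitochondrial folate metabolism, had log2 fold changes of 0.75 and 0.22 and rose, as did SLC7A11, the cystine transporter, with 0.38. TRIB3, a pseudokinase induced by ATF4, had 96.6, 103 and 118 CPM with siADNP, against 72.1, 91.1 and 65.8 CPM with siControl. CHAC1, a glutathione-degrading enzyme, had 20.9, 30.7 and 29.1 CPM with siADNP, against 9.19, 21.1 and 9.28 CPM with siControl, and DDIT4, an inhibitor of mTORC1, had 96.1, 109 and 142 CPM with siADNP, against 55.8, 103 and 60.9 CPM with siControl.

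The siControl libraries were unequal for these stress genes, with siControl replicate 2 above the other siControl libraries for TRIB3, CHAC1 and DDIT4 and within the siADNP range for CHAC1 and DDIT4. The log2 fold change was 0.99 for CHAC1 and 0.64 for DDIT4, and without siControl replicate 2 it was 1.55 and 0.98. Neither passed in DESeq2's Wald test (adjusted p = 0.0887 for CHAC1 and 0.167 for DDIT4). GCLC, the catalytic subunit that limits glutathione synthesis, was the gene of this list that fell, with -0.21, and it did not pass without siADNP replicate 1 (edgeR adjusted p = 0.0672) or siControl replicate 2 (0.156). CEBPD was also highest in siControl replicate 2, and its log2 fold change without that library was -0.87.

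Cell cycle genes described as targets or interactors of C/EBP-alpha and C/EBP-delta gave no rise, 4 falls and 9 genes that did not pass of 13 tested. The median log2 fold change of the 13 was -0.12. Among all tested genes, 14.6% were called higher and 13.7% lower. CDKN1A, the inhibitor p21 that C/EBP-alpha is known to stabilise, and CCND1, cyclin D1, fell with log2 fold changes of -1.09 and -0.43. RB1, the retinoblastoma protein, had 104, 125 and 116 CPM with siADNP, against 153, 151 and 140 CPM with siControl (log2 fold change -0.36 ± 0.06, edgeR adjusted p = 1.06e-05). MYC fell with -0.13, a call that ended with upper-quartile scaling (adjusted p = 0.0996), library totals (0.0508), the replicate block (0.0706), and without siADNP replicate 2 (0.128), siADNP replicate 3 (0.0576), siControl replicate 1 (0.161) or siControl replicate 2 (0.123).

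**Figure D4:**
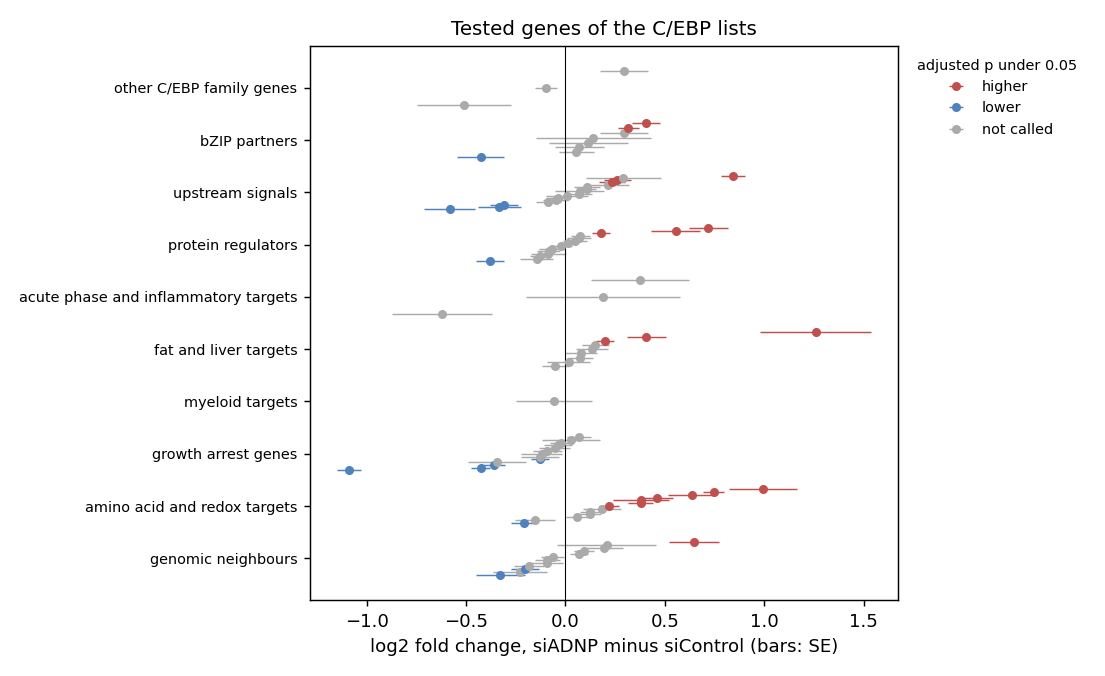
Log2 fold change, siADNP minus siControl (points, with SE), of the tested genes of each C/EBP list, with lists down the page and genes ordered by value within a list. Red points were called higher, blue lower and grey not called at an adjusted p of 0.05 in edgeR. There were 7 rises and 1 fall among amino acid and redox targets. The cell cycle genes, labelled growth arrest genes, had no rise and 4 falls. They include the inhibitor CDKN1A and the cyclin CCND1. Over all tested genes, 14.6% were called higher and 13.7% lower.

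The genes beside the C/EBP loci, the 3 nearest protein-coding genes on each side with a line in the table, gave 1 rise, 2 falls and 9 genes that did not pass of 12 tested, with a median log2 fold change of -0.08. Beside these counts, 28.3% of all tested genes were called, 14.6% higher and 13.7% lower. KCTD15, beyond CEBPG on chromosome 19, had 16.2, 19.5 and 15.0 CPM with siADNP, against 11.3, 10.5 and 10.7 CPM with siControl (log2 fold change 0.65 ± 0.13, edgeR adjusted p = 0.000159). CEBPA and CEBPG are each other's neighbours there, and LRP3 and PEPD on either side did not pass, with 0.20 and -0.18. PEPD passed under the GC offset, at -0.29 (edgeR adjusted p = 0.00317, or 0.00488 once blocked by replicate), and without siADNP replicate 1 (0.0349), and LRP3 passed without siADNP replicate 3 (0.0322). Around CEBPD on chromosome 8, KIAA0146, PRKDC, MCM4 and UBE2V2 did not pass, with log2 fold changes of -0.09, 0.09, 0.07 and -0.06, beside -1.07 for CEBPD, though PRKDC passed without siADNP replicate 3, at 0.15 (edgeR adjusted p = 0.0213). HGSNAT, the third gene on one side in that order and at a distance not measured here, fell with -0.33. Its call ended in 8 alternatives, among them DESeq2's Wald test (adjusted p = 0.183). Around CEBPB on chromosome 20, which also carries ADNP, PTPN1 fell with -0.20, a call that ended in 6 alternatives, among them without siControl replicate 1 (adjusted p = 0.208), while TMEM189, UBE2V1 and PARD6B did not pass, with -0.23, 0.21 and -0.09. A read-through gene, TMEM189-UBE2V1, shares exons with both TMEM189 and UBE2V1 and had 0 reads, so the counts of both are uncertain.

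By Pearson's r of log2 CPM over the 6 libraries, in tested genes averaging 5 CPM or more, the patterns most like that of CEBPD were those of ZNF3 (r = 0.998), VAMP4 (0.994) and SDHB (0.993). Their differences between the groups were smaller, with log2 fold changes of -0.13, -0.56 and -0.13. Those most like CEBPB were ZNF28, IFNAR1 and NUP43 (0.995, 0.991 and 0.987), and those most like CEBPA were WDPCP, TSN and ZNF146 (0.996, 0.990 and 0.990). OSBPL5, OCRL and SLC25A43 were nearest to CEBPG (0.991, 0.987 and 0.978). These r values rest on 6 libraries, were picked as the highest among all genes compared, and include the difference between the groups.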

How the data were processed

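Total RNA of HCT116 cells was purified with Trizol, treated with a DNase and made into libraries with a Nugen whole-transcriptome kit, per the labels' protocols. The authors deposited whole-number counts of reads per gene symbol with no normalization, made with STAR and HTSeq on hg19 per the submitters' processing notes, with the annotation and strand setting not given in the sources used here. They also deposited log2 values from a transformation, which per the submitters' processing notes came from DESeq2, and which were used in 1 alternative. The table's 5 non-gene summary lines entered neither library sizes nor tests. Of each library, 26.4% to 28.3% of reads fell in genes, 53.5% to 55.7% in no feature, 0.455% to 0.500% in several features and 17.4% to 17.9% had no single alignment.

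All 12489 genes that passed filterByExpr (minimum count 10) entered edgeR 4.0.16 (R 4.3.3) with TMM scaling, glmQLFit and glmQLFTest, two-sided, with Benjamini-Hochberg adjustment over all of them. Genes were called at an adjusted p under 0.05. The SE was derived from the log2 fold change and the square root of F. CPM use TMM scaling. Lengths and GC content come from the longest GENCODE transcript of a newer build, available for 97.0% of tested genes. Neighbours and promoters come from RefSeq GRCh38.p14, and 19863 symbols were current RefSeq symbols and 2138 older names of 1 gene. The test was also run on simulated counts with known changes in a small part of the genes and no GC trend. That run cannot check the test under the GC trend of these data. The members, the lists and the alternatives were chosen with earlier results of these data known. Named were the members, ADNP, family genes and neighbours, up to 6 called genes per list with the smallest p, all rises or falls of a list with fewer than 4, and the 3 most alike genes per member, with ATF3, PTGS2 and genes given as not called or not tested chosen after their values were seen. Alternatives were other scalings and filters, DESeq2 1.42.0, limma 3.58.1, a replicate block, a GC offset (removing each library's smooth trend of log2 CPM deviations with GC content) and leaving out each library. The labels state no pairing of libraries by replicate number, and the main fit used none. No 2 libraries were identical, with a chi-square per degree of freedom of 1.80 to 3.04 within groups and 6.63 to 8.63 between them. Figures were drawn with matplotlib 3.10.9.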

Additional observations from a re-analysis of the deposited data

How the results depend on the processing

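The log2 fold changes of CEBPA and CEBPG moved by less than 1 SD between libraries in every alternative, and CEBPD stayed below 0 and CEBPB above 0 throughout. CEBPD was -0.29 and CEBPB 0.10 in limma on the deposited transformed values, whose scale is compressed at low counts by construction, and CEBPB was also 0.10 with the GC offset, whether or not a replicate block was added. When 1 library was left out, CEBPD ran from -1.31 to -0.81, CEBPB from 0.19 to 0.31, CEBPA from -0.22 to -0.02 and CEBPG from -0.10 to 0.000457. DESeq2's Wald test called 1100 genes higher and 1071 lower, where edgeR called 1824 and 1714, and 5 of the amino acid and redox targets; the cause was not tested. Among the genes listed with the C/EBP family 1 was called with upper-quartile scaling, 1 with library totals and 1 in limma, and 0 to 1 when a library was left out. Leaving out a library gave 3 to 5 calls among zipper partners (5 without siControl replicate 2), 0 to 1 among inflammatory targets (1 without siControl replicate 2) and 1 to 3 among neighbours (1 without siControl replicate 1), where upper-quartile scaling and DESeq2 called 1 each. The replicate numbers are shared by the groups, but same-numbered libraries did not deviate together (r of 0.02, -0.04 and -0.03). With the replicate block edgeR called 1694 genes higher and 1542 lower, CEBPD was -1.07, and no list's count of calls moved by over 1.5 times. The 46 other named genes include genes that edgeR did not call, such as CEBPZ and MCM4, which had no call to lose. Of the called ones, 13 lost their call in at least 1 alternative and 0 changed sign. Counting alone gives CEBPA, CEBPB and CEBPD a coefficient of variation of 10.3% to 21.0% within a group, which limits what can be said of small differences in them.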

Other observations

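Of 2004 tested genes with a mean of 3 to 10 CPM, 18.5% were called and 5.04% were called lower, against 28.3% and 13.7% over all tested genes, with a median SE of the log2 fold change of 0.19. SESN2, a leucine sensor induced by stress, had 41.1, 44.5 and 52.6 CPM with siADNP, against 33.7, 49.0 and 37.7 CPM with siControl, and did not pass. ASNS, the asparagine synthetase controlled by ATF4, had 258, 298 and 326 CPM with siADNP, against 261, 291 and 258 CPM with siControl, and did not pass either. For both genes siControl replicate 2 was the highest siControl library. These genes were picked after their values were seen, and no test was made of them as a set.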
